A study of Mus musculus with 19 samples.

Results

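Blood and lymph vessel genes were examined as a set of 10 named genes, *Pecam1*, *Cdh5*, *Emcn*, *Eng*, *Vegfa*, *Kdr*, *Flt1*, *Tek*, *Lyve1* and *Prox1*, out of 24552 features in each of 2 expression tables. The genes were listed by symbol with earlier results of these data known, and all 10 were present in both tables. The study sequenced RNA of cornea and conjunctiva from C57BL/6 mice (C57BL/6 J in the methods) fed ad libitum (AL) or on calorie restriction (CR), 5 AL and 5 CR corneas and 4 AL and 5 CR conjunctivas. Per the study's methods the mice were female, the corneal material was epithelium obtained by scraping, the conjunctiva was cut out, and the CR ration was lowered in steps, given once a day before the dark phase and kept up for months. All titles carry the marks 6M and 50W, which the labels do not explain; the design text calls the mice young, and in the methods CR began in adult mice at an age near the 6M mark. No group carried a transgene, a deletion or a drug. The titles number the libraries of a group, and the study counts them as mice.

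Blood vessels are lined by endothelial cells, which hold to each other through junction proteins and respond to vascular endothelial growth factor (VEGF) and angiopoietin. Lymphatic capillaries are lined by a related cell type that is set apart by the transcription factor PROX1 and the hyaluronan receptor LYVE1. The cornea is normally free of blood and lymph vessels, which keeps it clear, and soluble FLT1 made by corneal cells is known to trap VEGF-A. The conjunctiva, in contrast, is a vascular mucosa.

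Counted reads ranged from 10354125 to 14681223 per cornea library and from 10726717 to 14433441 per conjunctiva library. A value of 3 reads, taken here as the floor, corresponded to 2.27 to 3.37 normalized counts. Between 38.7% and 47.6% of features had no read in a cornea library, against 33.6% to 40.1% in a conjunctiva library. The corneal label matched its markers, since 7 corneal genes summed to 40219 to 60937 RPM (reads per 1000000 counted reads) in cornea and 8168 to 10927 in conjunctiva. The sums of 8 conjunctival epithelium genes overlapped, at 2174 to 5302 RPM in cornea and 2512 to 6122 in conjunctiva. For 5 of these 8 every conjunctiva library lay above every cornea library. Of 14278 features above a minimum mean level in either tissue, 20.3% lay above in this way. Conjunctiva also held 1178 to 12120 RPM of 9 skeletal muscle genes, against 19.5 to 39.5 in cornea. Their part in the results was not tested.

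Vessel genes separated the tissues. For 8 of 10 genes every conjunctiva library lay above every cornea library, where 20.3% of the 14278 features averaging 10 or more normalized counts in either tissue did so. The 2 exceptions were *Eng* and *Prox1*, and for both the overlap came from 1 conjunctiva library, CR 5; without it all 10 genes separated the tissues. Mean levels in conjunctiva exceeded those in cornea by factors from 3.12 for *Flt1* to 720.2 for *Emcn*. *Cdh5*, *Tek*, *Emcn* and *Prox1* never exceeded 3 reads in any of 10 cornea libraries. Only *Flt1* and *Vegfa* had more than 3 reads in all of them. The tables were scaled separately, so levels set across them are a description without a test. The cornea libraries came from scraped epithelium and the conjunctiva libraries from an excised piece. The gap therefore includes this difference of sampling, and the cornea values do not describe the layers below the epithelium. With bulk RNA, fewer cells of a type and less RNA per cell cannot be told apart either.

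**Figure D1:**
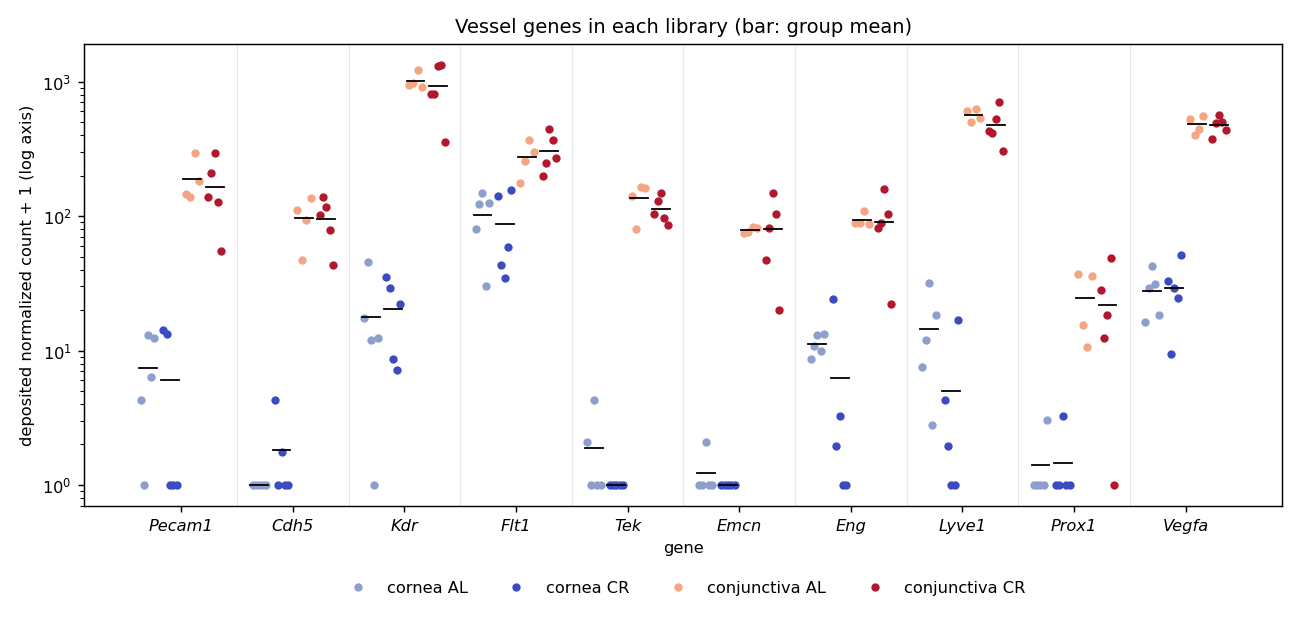
Deposited normalized counts plus 1 on a log axis for each gene, with 1 point per library (cornea AL n = 5, cornea CR n = 5, conjunctiva AL n = 4, conjunctiva CR n = 5) and a bar at the group mean. The conjunctiva points lie above the cornea points for 8 of 10 genes; the lowest conjunctiva points of *Eng* and *Prox1*, both from CR 5, reach the cornea range.

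Calorie restriction was not associated with a called change in any vessel gene. In conjunctiva 0 of 10 genes met the call (adjusted p under 0.05 and fold over 1.5, limma), against 0.359% of 13929 genes tested, and 0 of 10 had an unadjusted p under 0.05, against 9.4% of all genes. The AL and CR libraries overlapped for all 10 genes, where 3.87% of all genes did not overlap. In cornea 3 genes reached a mean of 10 normalized counts and were tested, and 0 of 3 were called, against 1.22% of 12278 genes. None of these 3 had an unadjusted p under 0.05 either, where 18.1% of all genes did. The voom fit on the recovered reads also called none in either tissue. In conjunctiva 9 of 10 log2 differences were below 0, where 52.0% of all genes tested were. Their median was -0.27, beside -0.02 over all genes. That count followed 1 library: without CR 5, *Pecam1*, *Cdh5*, *Kdr*, *Emcn*, *Eng* and *Prox1* turned positive and the median was 0.09.

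*Pecam1* (chr11:106654213-106715281, minus strand, GRCm38.p6) encodes CD31, an adhesion molecule of the endothelial junction that platelets and leukocytes also carry. Its normalized counts in conjunctiva were 145, 137, 292 and 183 in AL libraries 1, 3, 4 and 5, and 138, 207, 295, 127 and 54.3 in CR libraries 1 to 5. The groups overlapped and CR 5 was the lowest. Cornea had 3.30, 0, 12.0, 5.31 and 11.3 in AL 1 to 5 and 13.1, 12.3, 0, 0 and 0 in CR 1, 2, 3, 4 and 7. Reads were thus seen in 6 of 10 corneas, in 2 of 5 under CR. The conjunctiva mean was 30.6 times the cornea mean. The log2 difference CR minus AL in conjunctiva was -0.34 (SE 0.42, adjusted p = 0.855), within the spread between libraries.

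*Cdh5* (chr8:104101613-104144504, plus strand) encodes VE-cadherin, the adhesion protein of endothelial adherens junctions. Conjunctiva AL libraries had 109, 46.0, 92.5 and 135 normalized counts and CR libraries 100.3, 137, 115, 77.9 and 42.1. AL 3 and CR 5 were low, and the ranges nearly coincided. In cornea the gene was at 0 in 8 libraries and had 3 reads in CR 1 and 1 read in CR 3. Pooled RPM were 234 times higher in conjunctiva (95% interval 91.3 to 862, counting error only). The diet difference in conjunctiva was -0.02 (SE 0.37, adjusted p = 0.988). An antisense gene, *Gm29682*, overlaps *Cdh5*, so its count carries an uncertainty of strand.

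*Emcn* (chr3:137341062-137431069, plus strand) encodes endomucin, a sialomucin of capillary and venous endothelium. The 4 conjunctiva AL libraries were close together at 74.0, 75.2, 81.8 and 80.9 normalized counts. The CR libraries had 45.8, 80.9, 148, 102 and 18.8, on both sides of the AL values. The SD was 3.94 in AL (n = 4) and 50.0 in CR (n = 5), with means of 77.9 and 79.1. The log2 difference was -0.28 (SE 0.47, adjusted p = 0.899), although the mean count was not lower under CR. A single read, in AL 3, was found over all 10 corneas. The pooled ratio was 763, with a counting interval from 137 to 30190.

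*Eng* (chr2:32646595-32682669, plus strand) encodes endoglin, a TGF-beta co-receptor of endothelium. Conjunctiva had 87.6, 87.5, 108 and 86.3 normalized counts in AL and 80.8, 87.6, 158, 102 and 21.1 in CR. As for *Emcn*, CR 3 was the highest library and CR 5 the lowest. In cornea the AL libraries had 7.70, 9.83, 12.0, 8.84 and 12.4, and the CR libraries 23.0, 0.942, 2.27, 0 and 0. CR 1 was the highest cornea and the other 4 CR corneas lay below every AL cornea. *Eng* had a mean under 10 normalized counts and was not tested in cornea. Fitted without that minimum, its difference was -2.01 (SE 0.88, adjusted p = 0.298). The share of features at 0 was 39.9% in CR 1 and 42.7% to 47.6% in the other CR corneas, against 38.7% to 45.2% in AL corneas; its part in the result was not tested. In conjunctiva the difference was -0.28 (SE 0.45, adjusted p = 0.892). The gene *Fpgs* overlaps *Eng* on the other strand.

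*Vegfa* (chr17:46016993-46032377, minus strand) encodes VEGF-A, the main ligand that drives vessel growth. Its values in conjunctiva were 525, 398, 444 and 558 normalized counts in AL and 373, 487, 565, 498 and 436 in CR. They varied least of the 10 genes, with a coefficient of variation of 14.3% over 9 libraries, and the groups covered the same range. Cornea had 15.4, 28.4, 41.5, 30.1 and 17.5 in AL and 31.8, 8.48, 28.0, 23.5 and 50.2 in CR. No cornea library was at 0 and the highest was a CR library. The ratio of the tissue means was 17.3. The diet difference in conjunctiva was -0.03 (SE 0.17, adjusted p = 0.971), and its 95% interval as a fold ran from 0.768 to 1.25. The cornea difference was -0.01 (SE 0.50, adjusted p = 0.995), with a wider fold interval of 0.477 to 2.06.

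*Kdr* (chr5:75932827-75979072, minus strand) encodes VEGFR2, the receptor that carries most VEGF-A signalling in endothelium. Conjunctiva had 946, 972, 1220.0 and 916 normalized counts in AL and 812, 811, 1304, 1328 and 352 in CR. CR 3 and CR 4 lay above every AL library and the other 3 CR libraries below, with CR 5 lowest. Cornea had 16.5, 44.8, 10.9, 0 and 11.3 in AL and 34.0, 28.3, 7.58, 6.13 and 21.4 in CR. The groups overlapped throughout. The conjunctiva mean was 53.2 times the cornea mean. The diet difference was -0.27 (SE 0.35, adjusted p = 0.861) in conjunctiva and 0.71 (SE 0.90, adjusted p = 0.707) in cornea. Without cornea AL 4, the library at 0, the latter turned to -0.13.

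*Flt1* (chr5:147561604-147726438, minus strand) encodes VEGFR1, which binds VEGF-A and also exists as a soluble decoy receptor. The tables hold 1 value per gene, so soluble and membrane forms could not be separated. Conjunctiva had 176, 257, 365 and 299.8 normalized counts in AL and 198, 246, 439, 369 and 269 in CR. This was the only gene of the set with a difference above 0 in conjunctiva, 0.14 (SE 0.25, adjusted p = 0.907), and the groups overlapped. Cornea had 79.2, 122, 148, 29.2 and 124 in AL and 140.2, 42.4, 33.3, 58.2 and 154 in CR. Each group held low and high libraries, and the difference was -0.30 (SE 0.51, adjusted p = 0.791). With 913 reads over 10 libraries, *Flt1* was the most covered vessel gene in cornea, and its conjunctiva mean was 3.12 times the cornea mean.

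The balance of the 2 VEGF receptors differed between the tissues within each library. *Flt1* reads made up 60% to 100% of the reads of *Flt1* and *Kdr* together in cornea (median 85.3%, 10 libraries). In conjunctiva they made up 15.7% to 43.3% (median 23.0%, 9 libraries). No cornea library overlapped a conjunctiva library. The lowest cornea was CR 2, with 45 *Flt1* and 30 *Kdr* reads and a 95% Wilson interval of 48.7% to 70.3%. The highest conjunctiva was CR 5, with 243 and 318 reads and an interval of 39.3% to 47.4%; the other 8 conjunctivas stayed at or below 25.2%. These intervals cover counting error only. The share uses no scaling between tables, but it depends on the lengths of the transcripts counted for both genes. No test was run on it.

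**Figure D2:**
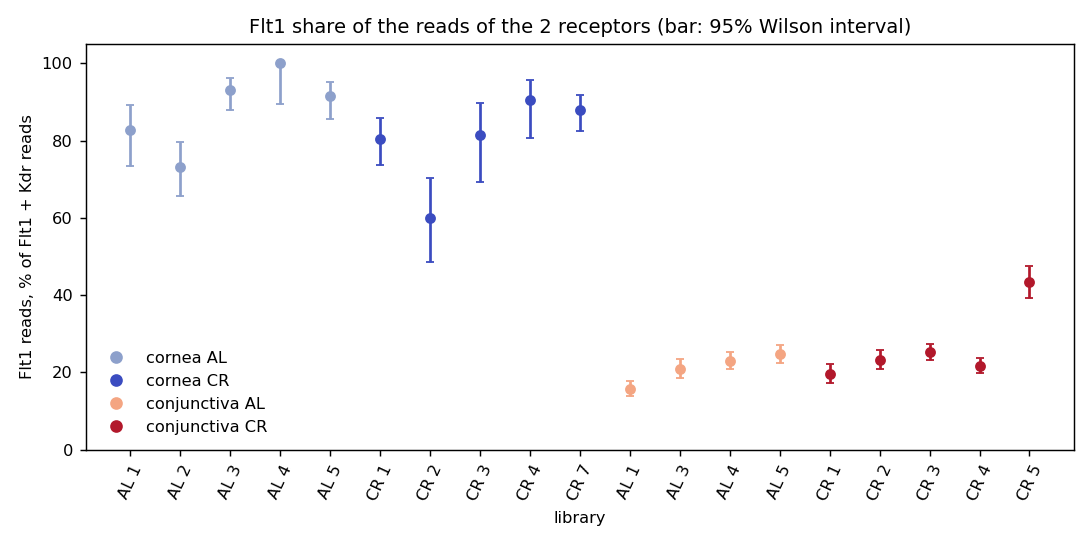
*Flt1* reads as a percentage of *Flt1* plus *Kdr* reads in each library, with 95% Wilson intervals for counting error. The 10 cornea libraries lie between 60% and 100% and the 9 conjunctiva libraries between 15.7% and 43.3%.

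The bases before the RefSeq starts of *Kdr*, *Flt1* and *Vegfa* are shown because these genes make up the VEGF-A ligand and receptor set and the first of them separated the tissues far more than the second. Each window holds 250 bases on the minus strand of GRCm38.p6, 5' to 3', at chr5:75978456-75978705 for *Kdr*, chr5:147726012-147726261 for *Flt1* and chr17:46032378-46032627 for *Vegfa*. The windows of *Kdr* and *Flt1* lie inside the gene spans given above, which come from RefSeq gene records, and that of *Vegfa* lies directly before its span. Capitals mark every AGGAAG or CGGAAG (cores bound by ETS factors, a family active in endothelium) and every GGGCGG (a GC box) on either strand.
*Kdr*: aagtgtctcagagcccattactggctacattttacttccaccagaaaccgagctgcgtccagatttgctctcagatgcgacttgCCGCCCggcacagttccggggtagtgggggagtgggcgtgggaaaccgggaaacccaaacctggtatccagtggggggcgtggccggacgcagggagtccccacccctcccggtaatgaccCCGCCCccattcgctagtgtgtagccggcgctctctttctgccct
*Flt1*: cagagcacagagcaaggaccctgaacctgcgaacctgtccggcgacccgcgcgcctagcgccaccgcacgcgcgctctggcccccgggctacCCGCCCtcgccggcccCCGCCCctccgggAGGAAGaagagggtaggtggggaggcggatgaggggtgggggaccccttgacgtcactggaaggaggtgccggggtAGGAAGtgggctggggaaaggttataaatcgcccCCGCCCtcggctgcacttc
*Vegfa*: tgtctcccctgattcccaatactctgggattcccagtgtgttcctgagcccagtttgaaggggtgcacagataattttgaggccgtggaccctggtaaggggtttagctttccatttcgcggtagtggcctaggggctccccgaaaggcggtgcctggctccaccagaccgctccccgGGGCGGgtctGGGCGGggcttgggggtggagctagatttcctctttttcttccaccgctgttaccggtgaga
GGGCGG occurred 2 times in the *Kdr* window, 3 times in that of *Flt1* and 2 times in that of *Vegfa*, and it was found in 32.9% of 27025 such windows. AGGAAG occurred 2 times in the *Flt1* window and was not among the letters of the other windows, where 29.2% of all windows held it. CGGAAG, present in 13.8% of all windows, was in none of the 3. The motifs do not overlap each other. These matches describe letters and not bound sites. Of the other genes, *Tek*, *Emcn*, *Eng* and *Prox1* also had a window in the table, and AGGAAG occurred 2 times each in those of *Emcn* and *Eng*.

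*Tek* (chr4:94739086-94874976, plus strand) encodes TIE2, the angiopoietin receptor that stabilises vessels. Conjunctiva had 141, 78.6, 165 and 161 normalized counts in AL and 103, 128, 148, 95.3 and 85.3 in CR. AL 3 was the lowest library and 3 of 4 AL libraries lay above 4 of 5 CR libraries. The diet difference was -0.25 (SE 0.27, adjusted p = 0.828), and it stayed negative without CR 5 at -0.16. In cornea 4 reads were counted in all, 1 in AL 1 and 3 in AL 3, and every CR cornea was at 0. The pooled ratio between the tissues was 299, with a counting interval from 117 to 1101.

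*Lyve1* (chr7:110850607-110862953, minus strand) encodes a hyaluronan receptor of lymphatic capillaries that some tissue macrophages also carry. Conjunctiva had 603, 503, 627 and 533 normalized counts in AL and 427, 417, 522, 704 and 304 in CR. In CR, 4 of 5 libraries were below the AL mean of 567, while CR 4 was the highest of all 9. *Lyve1* had the lowest unadjusted p of the set, 0.152 by limma, with a log2 difference of -0.30 (SE 0.20, adjusted p = 0.682). Its 95% interval as a fold ran from 0.601 to 1.09. The difference was -0.46 without CR 4 and -0.16 without CR 5. The summed level of 14 macrophage genes was 366 to 479 RPM in AL and 227 to 381 in CR conjunctivas. Their differences were below 0 in 14 of 14 and 0 were called, beside 52.0% and 0.359% of all genes. The part of these genes in the *Lyve1* value was not tested. In cornea *Lyve1* had 6.60, 10.9, 30.6, 1.77 and 17.5 normalized counts in AL and 3.29, 0.942, 0, 0 and 15.8 in CR. Both groups reached from near the floor to above 15, and the gene was under the minimum for a test. Fitted without the minimum, the difference was -2.01 (SE 0.94, adjusted p = 0.326). The macrophage genes summed to 35.9 to 57.9 RPM in AL and 27.9 to 35.6 in CR corneas. Of these genes 9 of 9 tested had differences below 0 and 1 was called, where 1.22% of all genes were called. The median difference over all genes tested in cornea was -0.03. Their part in the *Lyve1* values of cornea was not tested.

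*Prox1* (chr1:190118035-190170827, minus strand) encodes the transcription factor that specifies lymphatic endothelium and that lens and some neurons also use. It was the sparsest gene in conjunctiva, with 210 reads over 9 libraries. The AL libraries had 36.2, 14.6, 9.68 and 34.5 normalized counts and the CR libraries 27.3, 11.4, 17.4, 48.2 and 0. CR 5 had no read, which allows up to 3.32 normalized counts, and CR 4 was the highest. The log2 difference was -0.78 (SE 0.96, adjusted p = 0.847), and 0.13 without CR 5. Cornea held 2 reads in AL 5 and 3 in CR 3 and none elsewhere. *Prox1os* and *Gm28172* overlap the gene on the other strand.

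Per length, *Lyve1* came first in conjunctiva. It had 14.5 ± 3.56 RPM per kilobase of exon (SD, n = 9), *Vegfa* 9.11 ± 1.54 and *Kdr* 8.78 ± 2.87. *Pecam1*, *Tek*, *Cdh5*, *Eng*, *Flt1* and *Emcn* followed between 2.34 and 1.20, and *Prox1* was last at 0.216 ± 0.145. Each gene's range overlapped that of its neighbour in this order. Every library's value of *Lyve1* and of *Vegfa* nevertheless exceeded every value of the last 7 genes. In cornea the order began with *Flt1* at 0.595 ± 0.318 (SD, n = 10) and *Vegfa* at 0.555 ± 0.245, which did not differ beyond their spread. *Lyve1*, *Kdr*, *Eng* and *Pecam1* lay between 0.259 and 0.0801 and the other 4 below 0.01. If the libraries were made from transcript ends, as 1 of the 2 kits named in the sources would do, a length scale overcorrects long genes.

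Conjunctiva CR 5 stood apart for these genes. It was the lowest of 9 libraries for 7 of 10, where 19.3% of all genes tested had their lowest value there. The exceptions were *Tek*, *Flt1* and *Vegfa*. The same library was lowest for 23 of 35 other blood endothelial genes, 11 of 13 mural cell genes and 9 of 14 fibroblast genes tested. Other lists had smaller shares. CR 5 was lowest for 5 of 12 other lymphatic genes, 4 of 14 macrophage genes and 0 of 8 conjunctival epithelium genes. It had the largest share of features at 0 in conjunctiva, 40.1%, and 1181 RPM of muscle genes, close to the 1178 of AL 3. Its depth, 12233829 counted reads, was within the range of the others. When the share of features at 0 was added as a covariate, chosen after seeing the data, the median of the 10 differences moved from -0.27 to 0.08. The share is counted from the same reads as the genes, so this fit cannot tell its part from that of diet.

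**Figure D3:**
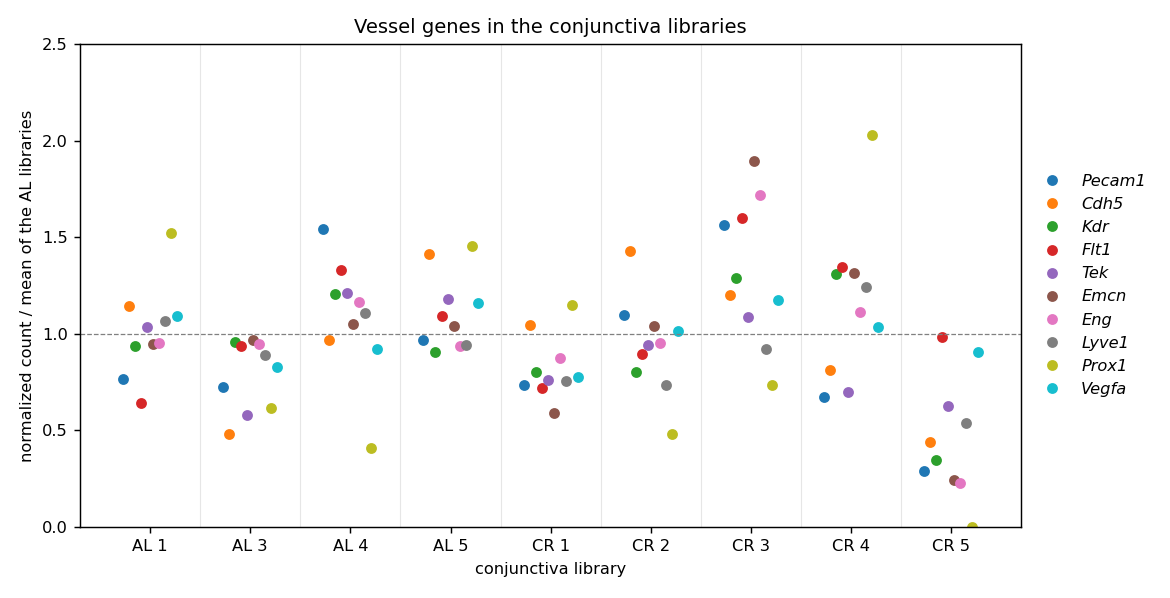
Normalized count of each gene in each of the 9 conjunctiva libraries, divided by the mean of the 4 AL libraries (dashed line at 1). In CR 5 7 of 10 genes have their lowest value, *Prox1* at 0, while *Flt1* and *Vegfa* stay near 1.

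**Figure D4:**
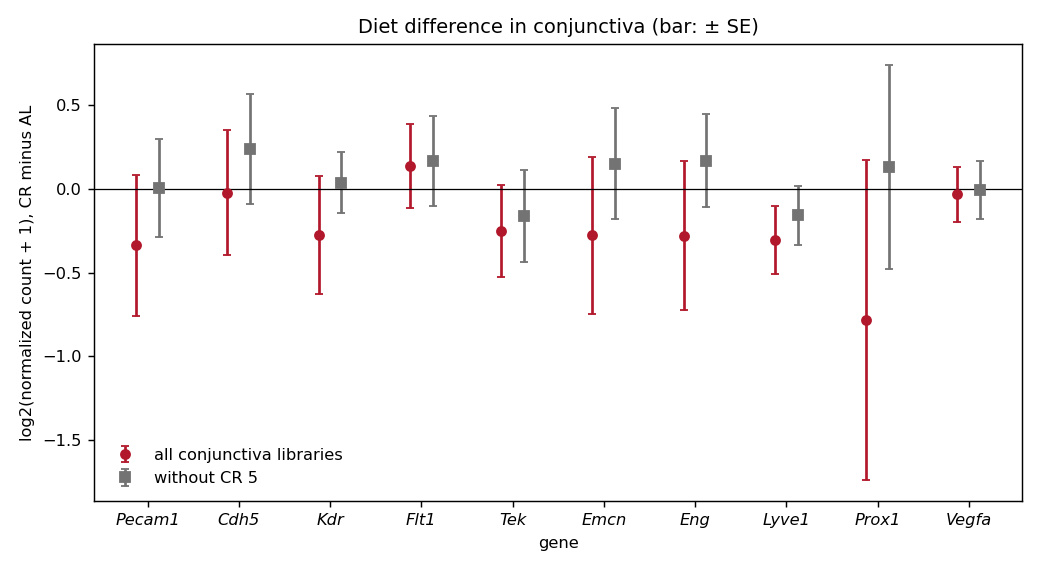
Difference CR minus AL in log2(normalized count + 1) in conjunctiva, with SE, from all 9 libraries (circles) and from 8 libraries without CR 5 (squares). The circles lie below 0 for 9 of 10 genes, and 6 of these turn positive without CR 5.

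The diet differences were then set against each other between tissues for the 3 genes tested in both. The difference of differences (conjunctiva minus cornea) was -0.99 (SE 0.96, adjusted p = 0.843) for *Kdr*, 0.44 (SE 0.57, adjusted p = 0.881) for *Flt1* and -0.02 (SE 0.53, adjusted p = 0.995) for *Vegfa*. None passed the threshold, where 0.0168% of 11929 genes did. The intervals were wide, from -2.97 to 1.001 for *Kdr*, and do not show that the tissues responded alike. The SE treats the tissues as independent, although the study took several tissues from a mouse and 4 AL and 4 CR title numbers occur in both. With the 8 same-numbered libraries paired across tissues, chosen after seeing the data, the values were -1.11 (SE 1.16, adjusted p = 0.939), 0.63 (SE 0.78, adjusted p = 0.941) and 0.21 (SE 0.51, adjusted p = 0.976) by limma.

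Many other genes of the vessel pathway were higher in conjunctiva. Every conjunctiva library was above every cornea library for 22 of 38 other blood endothelial genes, 10 of 14 other lymphatic genes, 11 of 14 mural cell genes and 6 of 7 other VEGF ligands and receptors. The other genes overlapped. Of all features averaging 10 or more normalized counts in either tissue, 20.3% lay above in this way. The lists also hold genes below that level in both tissues, so their counts and this share are not on like sets. *Sox7* and *Sele*, an endothelial transcription factor and an adhesion molecule of inflamed vessels, and *Notch3*, a receptor of mural cells, had the higher mean in cornea, with ratios of conjunctiva to cornea of 0.56, 0.455 and 0.517 and overlapping libraries. Only 6 of the 38 blood endothelial genes reached a mean of 10 normalized counts in cornea, against 35 in conjunctiva. *Vegfb* and *Vegfd*, further VEGF ligands, had 14.3 ± 3.16 and 7.65 ± 2.90 RPM in cornea (SD, n = 10), against 43.6 ± 15.2 and 48.7 ± 9.59 in conjunctiva (n = 9). *Nrp1* and *Nrp2*, the VEGF co-receptors, were 10.1 ± 3.55 and 2.995 ± 2.03 in cornea and 60.2 ± 18.4 and 19.4 ± 4.74 in conjunctiva. Lists that do not mark vessels also separated the tissues, fibroblast genes 13 of 14 and skeletal muscle genes 9 of 9. HIF factors, the oxygen-sensing regulators upstream of *Vegfa*, did so in 0 of 6 and hypoxia targets in 6 of 16.

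**Figure D5:**
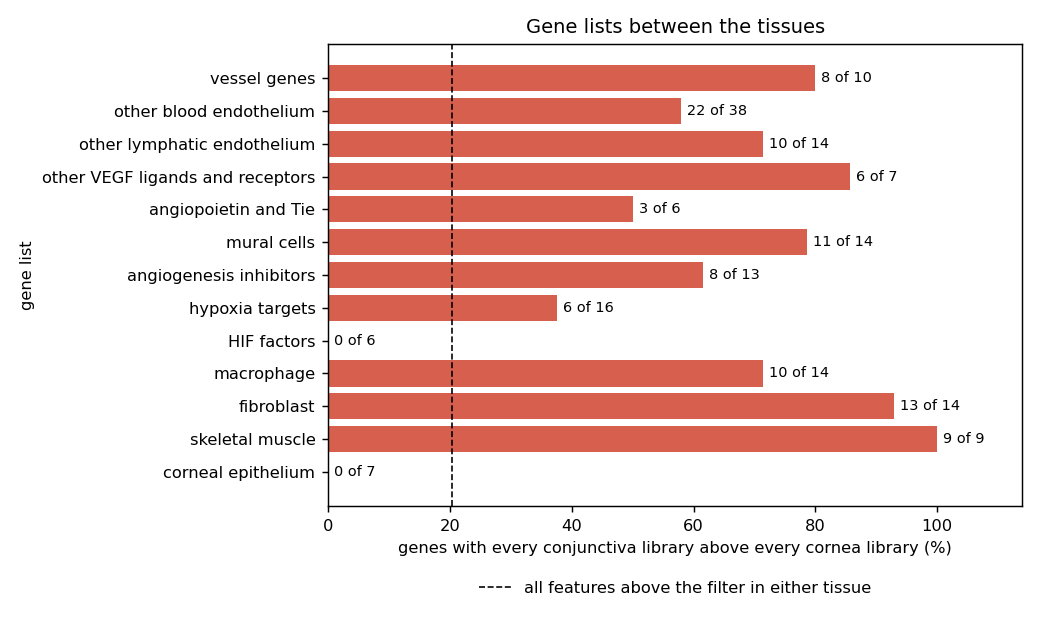
Share of each gene list whose conjunctiva libraries all lie above all cornea libraries, on deposited values, with counts beside the bars. The dashed line marks the 20.3% of features averaging 10 or more normalized counts in either tissue, while the lists also hold lower genes. The vessel genes reach 8 of 10, fibroblast genes 13 of 14, and HIF factors 0 of 6.

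Under CR 0 of 81 other vessel pathway genes tested in conjunctiva were called, where 0.359% of all genes were. Of these 81, 14 had an unadjusted p under 0.05, beside 9.4% of all genes. Of 35 other blood endothelial genes tested 26 were below 0 and 0 called, with a median of -0.28; *Ackr1*, a chemokine-binding receptor of venules, had -1.09 (SE 0.38, adjusted p = 0.326) and *Cd34*, a sialomucin that fibroblasts also carry, -0.58 (SE 0.21, adjusted p = 0.358). *Cd34* passed the adjusted p only without CR 3, at -0.75 (adjusted p = 0.0428). Without CR 5 the median of that list was -0.01. Of 12 other lymphatic genes 9 were below 0, with a median of -0.44, and -0.17 without CR 5. Of 13 mural cell genes 10 were below 0, with a median of -0.16, which was 0.03 without AL 1 and 1.3e-05 without CR 5. The VEGF ligands *Vegfd* and *Vegfc* had 0.41 (SE 0.17, adjusted p = 0.452) and -0.89 (SE 0.38, adjusted p = 0.461), and *Nrp2* had 0.50 (SE 0.21, adjusted p = 0.471). These 3 had unadjusted p-values under 0.05 but did not pass the correction. Of 14 fibroblast genes, all below 0, *Col3a1* and *Col1a1*, the main fibrillar collagens, were called lower at -1.57 (SE 0.21, adjusted p = 0.00337) and -1.37 (SE 0.20, adjusted p = 0.00592).

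In cornea 1 of 30 other vessel pathway genes tested was called, beside the 1.22% of all genes, and 12 had an unadjusted p under 0.05, beside 18.1%. *Timp3*, a matrix protease inhibitor that also blocks VEGF-A binding to VEGFR2, rose under CR by 0.65 (SE 0.14, adjusted p = 0.0292), with means of 645 ± 47.2 in AL and 1032 ± 226 normalized counts in CR (SD, n = 5 each) and no overlap. The call was lost without any 1 of AL 1, AL 2, AL 3, AL 5, CR 2 and CR 3 (adjusted p 0.0571 to 0.0898) and with the share of features at 0 as a covariate (0.113). Of 9 angiogenesis inhibitors tested 6 were above 0, with a median of 0.61, beside -0.03 over all genes. *Thbs1*, a matrix glycoprotein that restrains vessel growth, had 0.92 (SE 0.28, adjusted p = 0.106), and *Col18a1*, the source of endostatin, 1.56 (SE 0.50, adjusted p = 0.121). In conjunctiva 10 of 12 angiogenesis inhibitors were below 0, with a median of -0.37 and 0 called. *Vegfb* in cornea had -0.55 (SE 0.17, adjusted p = 0.115), with every CR library below every AL library, where 3.97% of all genes did not overlap. The 6 blood endothelial genes tested in cornea had a median of -1.92 and 0 calls. With the share of features at 0 as a covariate the median was 0.03. That share was 38.7% to 45.2% in AL and 39.9% to 47.6% in CR corneas, so it went partly with diet. It is also counted from the same reads. Fits with this covariate, for any gene or list, therefore cannot tell its part from that of diet. *Nos3*, the endothelial nitric oxide synthase, had -2.05 (SE 0.80, adjusted p = 0.196) and *Sele* -3.19 (SE 1.32, adjusted p = 0.232).

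All lacrimal gland and macrophage genes tested had differences below 0 in cornea, unlike some other lists. Of 5 conjunctival epithelium genes tested 4 were above 0, with a median of 0.31, and of 12 fibroblast genes 6 were above 0. The 9 lacrimal gland genes tested had a median of -3.23, beside -0.03 over all genes tested in cornea. Of them 6 had an unadjusted p under 0.05 and 1 was called, beside 18.1% and 1.22% of all genes. The list summed to 2613 to 7721 RPM in AL and 1972 to 3166 in CR, and the highest sum was that of AL 1. The called gene was *Aqp5*, a water channel that corneal epithelium also carries, at -0.61 (SE 0.15, adjusted p = 0.0476). *Aqp5* had means of 44377 normalized counts in AL and 28919 in CR, so the sum is not a measure of gland material alone. The 9 macrophage genes tested had a median of -0.64, and *C1qa*, a complement subunit made by macrophages, was called lower at -1.58 (SE 0.39, adjusted p = 0.0467). Both calls were lost without any 1 of AL 1, AL 2, AL 3, AL 5, CR 2, CR 3 and CR 7, with adjusted p from 0.0598 to 0.143, and with the covariate, without the minimum level and with voom; that of *C1qa* was also lost with quantile scaling (adjusted p = 0.0773). The part of these cells and tissues in the vessel values of cornea was not tested.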

How the data were processed

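RNA-seq libraries of mouse cornea (10) and conjunctiva (9) were used. The authors deposited 1 table per tissue with log2 values, each the log2 of a count divided by a size factor, plus 1. Per the study's methods, adapters were trimmed with cutadapt, reads aligned with STAR to mm10, counted with HTSeq and scaled by relative log expression with DESeq2. The submitters' notes name GRCm39 and DESeq2. The labels and methods name different library kits, a stranded mRNA kit and an oligo(dT) kit, so the build and the use of strand are not settled. Positions here come from RefSeq, and strands, exon lengths and overlapping genes from GENCODE, on GRCm38.p6.

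Values were returned to normalized counts, and 100% of them were whole reads. The tolerance was 0.01 read at low counts and widened in proportion at higher ones, so the highest counts passed by construction. Of 24557 features, 483 without a gene identifier were kept under their symbol and 5 repeats were left out. CR was compared with AL within each table with limma 3.58.1 in R 4.3.3 (trend, robust, two-sided) on log2(normalized count + 1), for genes with a mean of at least 10, with Benjamini-Hochberg adjustment. Fold changes on this scale understate those of low genes. Each sample's group came from its label. Depth gives counting intervals of 95%. The study's methods mention no molecular identifiers. The fit was tested on simulated counts. Alternatives were pseudocounts 0.5 and 10, no filter, a filter of 50, quantile and TMM scaling, voom on recovered reads, array weights, a replicate block, adjusted p under 0.1, and leaving out each library.

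The 10 genes and all gene lists were chosen with earlier results of these data known. Named were the 10 genes and, from the other lists, called genes and examples from the 3 with the smallest p per list and tissue. *Vegfb*, *Vegfd*, *Nrp1*, *Nrp2*, *Sox7*, *Sele* and *Notch3* levels between tissues were named after their values were seen.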

Additional observations from a re-analysis of the deposited data

Results flagged for a closer look

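A library stood apart from the rest of its group in 7 cases, judged by the gap to its nearest neighbour over the range of the group; chance alone gives this in about 1 of 20 groups of continuous values. In cornea, *Eng* in CR 1 was at 23.0 normalized counts (21 reads), with the next CR library at 2.27. *Lyve1* in cornea CR 7 was at 15.8 (17 reads), with the next at 3.29. The other 4 cornea cases had at most 3 reads, with *Cdh5* in CR 1 at 3.29, *Prox1* in CR 3 at 2.27 and in AL 5 at 2.06, and *Emcn* in AL 3 at 1.09. For *Prox1* and *Emcn* no other library of the group had a read, so these 3 cases follow from a single nonzero value and the chance rate does not apply to them. Of the 5 CR corneas, 3 were at 0 for *Cdh5*, 2 for *Eng* and 2 for *Lyve1*. These values are not continuous, so the rate does not hold for them either. In conjunctiva, *Eng* in AL 4 was at 107.6, with the next AL library at 87.6.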

How the results depend on the processing

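No vessel gene passed the adjusted p under any alternative run, with adjusted p from 0.189 to 0.997 in cornea and 0.438 to 0.9995 in conjunctiva. The count of genes called moved from 150 in cornea to 99 with voom, 705 with array weights, 62 with the share of features at 0 as a covariate (chosen after seeing the data) and 283 at adjusted p under 0.1, and from 50 in conjunctiva to 149 with array weights and 102 at adjusted p under 0.1. Leaving out 1 library gave 53 to 536 in cornea, 26 to 127 in conjunctiva and 0 to 7 genes for the difference between tissues (2 with all libraries). The cause was not tested.

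Signs turned as follows. In cornea, *Kdr* was -0.010 with array weights and -0.13 to 1.25 over left-out libraries, *Flt1* 0.37 with the covariate, and *Vegfa* 0.019 with a pseudocount of 10, 0.34 with quantile scaling and -0.26 to 0.35 over left-out libraries. In conjunctiva the covariate gave *Pecam1* 0.14, *Cdh5* 0.093, *Kdr* 0.058, *Emcn* 0.17 and *Eng* 0.23, and *Cdh5* was 0.10 with quantile scaling and 0.12 with array weights. Over left-out libraries the ranges were -0.60 to 0.0077 for *Pecam1*, -0.34 to 0.24 for *Cdh5*, -0.44 to 0.038 for *Kdr*, -0.058 to 0.29 for *Flt1*, -0.57 to 0.15 for *Emcn*, -0.54 to 0.17 for *Eng*, -1.27 to 0.13 for *Prox1* and -0.12 to 0.051 for *Vegfa*. *Lyve1* and *Tek* stayed below 0 under every alternative run, at -0.46 to -0.16 and -0.49 to -0.14 over left-out libraries. The tissue difference of *Vegfa* was -0.38 to 0.23 over left-out libraries.

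The numbers in the titles did not pair AL with CR samples: deviations of same-numbered libraries correlated at -0.30 to 0.29 in cornea and -0.06 to 0.05 in conjunctiva. A replicate block gave 46 calls in cornea, 10 in conjunctiva and 1 between tissues, and 0.34 for the tissue difference of *Vegfa*; *Timp3*, *Col3a1*, *Col1a1*, *C1qa* and *Aqp5* then missed the threshold (adjusted p 0.142, 0.0665, 0.0929, 0.185 and 0.315). Across tissues, same-numbered libraries of a diet correlated at -0.42 to 0.19, and pairing them gave 0 genes past the adjusted p for the tissue difference and 0.21 for *Vegfa*. The count of 8 genes separating the tissues was 8 under every scaling. In cornea, 7 of 10 genes were too low to test.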
